A study of Mus musculus with 7 samples.

Results

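The mitosis genes are those that a cell needs to condense and segregate its chromosomes and to divide: CDK1 and its cyclins, the mitotic kinases, the kinetochore, the spindle and its checkpoint, and the cytokinesis machinery. A list of 52 such genes was taken by name, and 50 of them were measured among the 18938 genes of the arrays, each by 1 probe set. For Tubb4b, a tubulin, and Hjurp, a chaperone of the centromeric histone, the arrays carry only a probe set that names several genes, and neither was analysed here. RNA came from the anterior prostate of Nkx3.1-/- mice of a recombinant inbred B6/129 strain, all 16 weeks old. The NAC group (4 arrays, replicates 1 to 4) drank water with 5 mM N-acetylcysteine, a thiol antioxidant and precursor of glutathione, for 13 weeks after weaning, and the vehicle group (3 arrays, replicates 1, 2 and 4) drank plain water. Both groups carry this homozygous null genotype, a tissue label says whole prostate where the extraction protocol says anterior prostate, and the litters were split between separate NAC and vehicle cages, so that cage and treatment cannot be told apart. The comparison of NAC with vehicle asks whether the antioxidant shifts the expression of genes of dividing cells in this prostate.

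Most of these genes are transcribed late in the cell cycle, peak in G2 and mitosis and are destroyed as messages or proteins when the cell exits division. In quiescent cells their promoters are held down by the DREAM complex, and in G2 they are activated by B-MYB, MuvB and FOXM1 together with NF-Y. NF-Y binds the CCAAT box, and DREAM and MuvB contact the cell cycle genes homology region (CHR). Where few cells divide, the whole-tissue level of a message made only in dividing cells reflects a small fraction of the cells. Which of these genes are also transcribed in cells that do not divide was not tested here. In bulk RNA, fewer dividing cells and less message per dividing cell cannot be told apart.

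Because many of the mitosis genes share promoter elements, the 150 bases upstream of the annotated start are shown for 8 whose values are given below. Of the 8, 6 have a log2 fold change above 0 and 2, Lbr and Hmgb2, below 0. The 8 are examples, and all carry a CCAAT box. Anln, Birc5, Ndc80, Nuf2 and G2e3, also among the genes with values below, have neither a CCAAT box nor a CHR in that stretch. The sequences are from RefSeq on build GRCm38.p6, read 5′ to 3′ on the strand of the gene. Capitals mark the CCAAT box (CCAAT, or ATTGG on the other strand) and the CHR (TTTGAA, or TTCAAA on the other strand). The windows lie at chr10:69352913-69353062 (minus strand) for Cdk1, chr9:70421555-70421704 (minus) for Ccnb2, chr4:118437344-118437493 (minus) for Cdc20, chr6:124830026-124830175 (plus) for Cdca3, chr1:191821323-191821472 (plus) for Nek2, chr7:135716380-135716529 (minus) for Mki67, chr1:181842402-181842551 (minus) for Lbr and chr8:57511693-57511842 (plus) for Hmgb2.
Cdk1: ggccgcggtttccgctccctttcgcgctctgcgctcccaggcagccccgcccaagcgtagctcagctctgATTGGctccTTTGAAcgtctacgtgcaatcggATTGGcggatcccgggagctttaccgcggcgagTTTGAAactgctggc
Ccnb2: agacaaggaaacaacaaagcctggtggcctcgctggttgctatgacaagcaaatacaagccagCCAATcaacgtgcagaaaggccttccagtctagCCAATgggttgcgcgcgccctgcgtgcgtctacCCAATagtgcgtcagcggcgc
Cdc20: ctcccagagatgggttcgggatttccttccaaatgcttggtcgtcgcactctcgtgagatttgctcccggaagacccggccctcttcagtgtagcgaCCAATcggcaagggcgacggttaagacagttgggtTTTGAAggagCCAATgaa
Cdca3: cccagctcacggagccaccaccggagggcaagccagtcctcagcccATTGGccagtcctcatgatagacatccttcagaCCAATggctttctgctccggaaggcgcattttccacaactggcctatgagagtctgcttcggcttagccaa
Nek2: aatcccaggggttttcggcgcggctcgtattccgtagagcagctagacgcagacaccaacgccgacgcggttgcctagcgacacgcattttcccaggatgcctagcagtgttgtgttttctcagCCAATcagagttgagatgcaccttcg
Mki67: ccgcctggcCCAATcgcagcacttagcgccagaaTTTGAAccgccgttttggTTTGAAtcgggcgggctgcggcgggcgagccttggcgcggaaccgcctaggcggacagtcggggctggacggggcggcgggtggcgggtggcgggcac
Lbr: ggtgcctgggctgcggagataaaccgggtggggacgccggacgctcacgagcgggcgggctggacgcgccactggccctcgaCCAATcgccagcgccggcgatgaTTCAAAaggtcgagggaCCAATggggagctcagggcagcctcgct
Hmgb2: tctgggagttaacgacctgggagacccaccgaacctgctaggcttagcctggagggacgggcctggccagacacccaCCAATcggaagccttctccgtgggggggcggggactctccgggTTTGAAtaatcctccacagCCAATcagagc

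Cdk1 and Cdca3 each carry a pair of CCAAT boxes, 32 and 33 bases apart, and the 3 boxes of Ccnb2 follow each other at 33 bases. Cdk1 has a CHR just before its start, and Cdc20 has one between its CCAAT boxes. No CHR lies in the stretch shown for Ccnb2, Cdca3 or Nek2. In Lbr and Hmgb2, both motifs are present. For Hmgb2, a limit of its probe set is given below. Over the longer window of 250 bases before to 50 bases after the start, 45 of the 52 genes had a sequence in the RefSeq table. A CCAAT box on either strand was found in 36 of these 45 genes (80.0%), against 41.8% of 14877 genes measured on the arrays with a window of the same length. At least 2 boxes were found in 28 (62.2%), against 14.4%. The CHR was found in 32 (71.1%), against 17.3%, and both motifs in 27 (60.0%), against 6.88%. The 2 motifs can share at most 1 letter where they meet. A match of letters is a description and not a binding site. Among members with both motifs that were measured, 22 of 25 had a log2 fold change above 0, with a median of 0.08. Among the 18 with a window that lacks one or both motifs, 13 were above 0, with a median of 0.03. No test was made of the difference between these medians.

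The deposited values are log2 expression levels, so that a difference of 1 is a doubling, and NAC was compared with vehicle by limma over all 18938 genes. Array medians lay between 7.12 and 7.16 and the lowest correlation between arrays over genes was 0.995, where genes are not independent replicates. In 7568 of all genes, 16 of the 50 mitosis genes among them, at least 3 arrays shared 1 value, which leaves small differences poorly resolved. The luminal epithelial markers stood high, with Krt8 at 11.96 to 12.12 and the prostate transglutaminase Tgm4 at 13.96 to 14.02, and the mean over the 8 of 10 luminal markers measured was 12.36 to 12.46 on NAC arrays and 12.37 to 12.41 on vehicle arrays. NAC array 3 stood apart in genes of other tissues: the 6 lung markers averaged 5.88 to 8.56 on NAC arrays and 5.82 to 5.91 on vehicle arrays, with the highest value on NAC 3, where the surfactant gene Sftpc was at 10.51. The 6 of 7 adipocyte markers measured averaged 5.85 to 7.48 on NAC arrays, again highest on NAC 3, and 5.91 to 6.00 on vehicle arrays. Skeletal muscle markers (7 of 7 measured) averaged 7.01 to 7.77 on NAC arrays and 7.03 to 7.08 on vehicle arrays, and endothelial markers (5 of 5) 7.27 to 7.62 on NAC arrays and 7.27 to 7.32 on vehicle arrays, both highest on NAC 3. The 7 seminal vesicle markers averaged 8.62 to 10.64 on NAC arrays and 10.01 to 10.39 on vehicle arrays. NAC array 4 had the highest of these means through Svs2 (13.53, against 9.399 to 10.99 on the other NAC arrays and 10.97 to 11.57 on vehicle arrays) and Pate4 (11.43, against 6.61 to 8.14 on the other NAC arrays and 8.35 to 9.17 on vehicle arrays), while Svs3a, Svs4 and Svs6 were lower on NAC 4 than on every vehicle array. Results are therefore given with and without NAC 3 and NAC 4.

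Across the mitosis genes, differences were small and most had the same sign: 41 of 50 had a log2 fold change above 0 with NAC and 9 below 0, whereas 49.5% of all genes were above 0. The median of the 50 was 0.06, against -0.0003 for all genes, and the range ran from -0.34 (Hmgb2) to 0.22 (Mki67). Probe set numbers of the other members run by chromosome. That of Hmgb2 (chromosome 8) lies between those of members on chromosome 4 and chromosome 5. That of Cks2 (chromosome 13) lies among those of chromosome 1. Whether these probe sets read the genes they are named for was not tested. With limma and Benjamini-Hochberg adjustment over all genes, 0 mitosis genes had an adjusted p under 0.05, the smallest being 0.827, and 0.0% of all genes did. At an unadjusted p under 0.05, 3 mitosis genes were higher with NAC (Cdca3, Nek2 and Dlgap5), against 1.89% of all genes, and 1 was lower (Lbr), against 2.53%. The share that was lower was near that of all genes. The 4 NAC arrays lay above all 3 vehicle arrays for 3 mitosis genes (Cdca3, Nek2 and Aurkb), against 1.29% of all genes, and below them for 0, against 2.18%. The p-values measure the spread between these mice, and mice of a litter or cage are not fully independent.

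**Figure D1:**
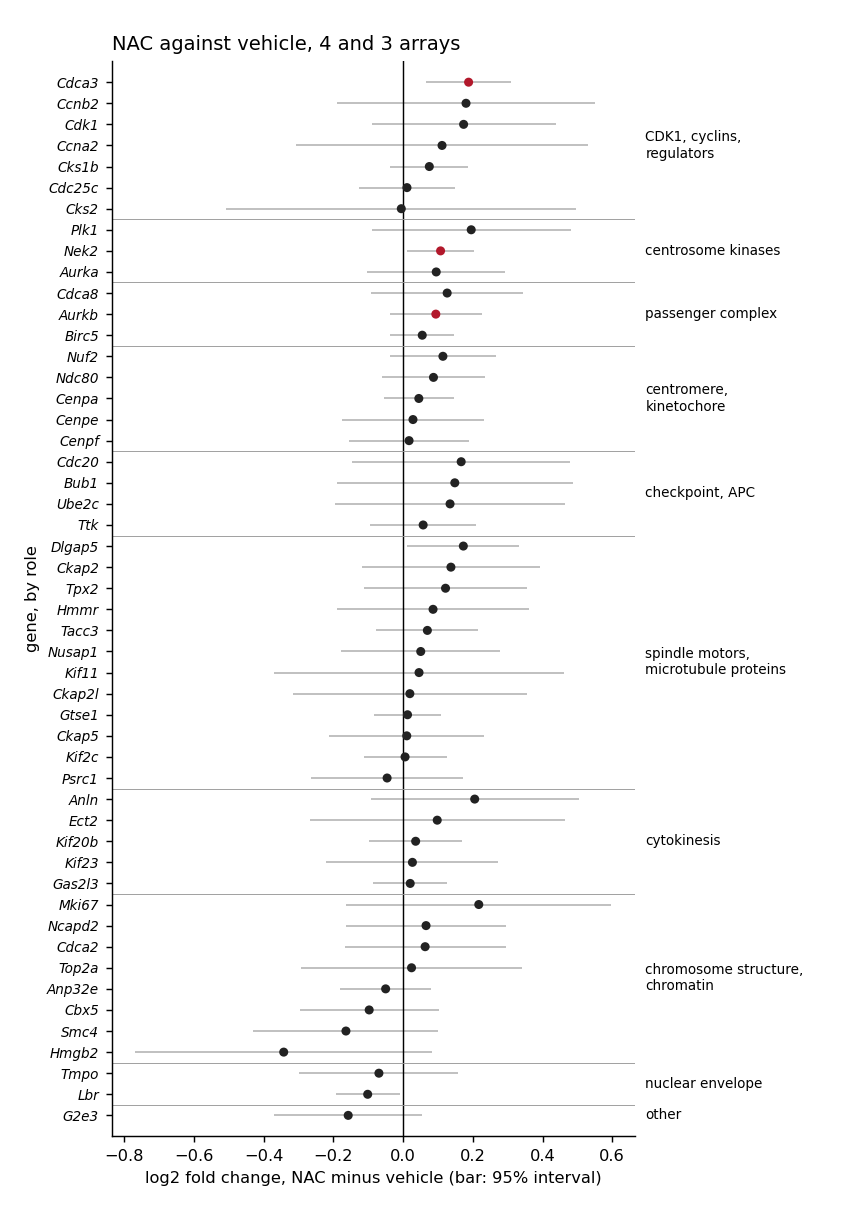
Log2 fold change (NAC minus vehicle, horizontal axis) of the 50 mitosis genes, grouped by role, as points with 95% intervals from limma over 4 NAC and 3 vehicle arrays; red points mark the 3 genes whose NAC arrays all lie above the vehicle arrays. Of the points, 41 lie to the right of 0 and all intervals but 4 (Cdca3, Nek2, Dlgap5 and Lbr) include 0.

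Among CDK1, the cyclins and their regulators, 6 of 7 genes had a log2 fold change above 0, with a median of 0.11, which was 0.06 without NAC 3 and 0.21 without NAC 4. Cdca3, also called trigger of mitotic entry, recruits the ubiquitin ligase that removes the CDK1 inhibitor WEE1. Its level was 7.35, 7.37, 7.29 and 7.24 on NAC arrays 1 to 4, against 7.22, 7.09 and 7.07 on vehicle arrays 1, 2 and 4. All NAC values were above all vehicle values, which came to 0.19 on the log2 scale (standard error, SE, 0.05, limma adjusted p = 0.827), or 1.14-fold. Its unadjusted p was the smallest of the mitosis genes. Cdk1, the kinase that drives entry into mitosis, was at 8.11, 8.29, 8.27 and 7.83 on the NAC arrays, against 7.95, 7.98 and 7.93 on the vehicle arrays. NAC arrays 1 to 3 were above every vehicle array and NAC 4 was below every one. Its log2 fold change was 0.17 (SE 0.11). Ccnb2, a B-type cyclin that activates CDK1, was at 7.96, 8.28, 8.15 and 7.66 on the NAC arrays, against 7.97, 7.89 and 7.63 on the vehicle arrays, and the groups overlapped. Ccna2, the cyclin of S phase and early mitosis, was at 7.46, 7.77, 7.72 and 7.04 on the NAC arrays, against 7.45, 7.44 and 7.27 on the vehicle arrays. As for Cdk1, NAC 2 and NAC 3 were highest and NAC 4 was lowest of all arrays. The log2 fold changes of Ccnb2 and Ccna2 were 0.18 (SE 0.16) and 0.11 (SE 0.18), and that of Ccna2 was 0.04 without NAC 3. Of the remaining members, the CDK-binding proteins Cks1b and Cks2 had 0.08 and -0.01, and the phosphatase Cdc25c had 0.01.

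All 3 centrosome and spindle kinases were above 0. Nek2, which separates the centrosomes before the spindle forms, was at 6.73, 6.77, 6.70 and 6.70 on the NAC arrays, against 6.64, 6.66 and 6.55 on the vehicle arrays. The groups did not overlap, but the lowest NAC array was only 0.03 above the highest vehicle array, and the log2 fold change was 0.11 (SE 0.04, limma adjusted p = 0.827). Plk1, a kinase of centrosome maturation, mitotic entry and cytokinesis, was at 7.19, 7.42, 7.26 and 6.90 on the NAC arrays, against 7.104, 6.96 and 6.92 on the vehicle arrays. As for Cdk1, NAC arrays 1 to 3 were above the vehicle arrays and NAC 4 below them, with a log2 fold change of 0.20 (SE 0.12). Aurka, the centrosomal Aurora kinase, was at 7.00, 6.98, 7.27 and 6.97 on the NAC arrays, against 6.94, 7.04 and 6.90 on the vehicle arrays, with only NAC 3 above every vehicle array. Its log2 fold change was 0.095 (SE 0.08), and 0.02 without NAC 3.

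The chromosomal passenger complex corrects wrong attachments of chromosomes to the spindle, and its 3 members measured were above 0, with a median of 0.09. Aurkb, its kinase, was at 7.78, 7.80, 7.75 and 7.75 on the NAC arrays, against 7.74, 7.75 and 7.54 on the vehicle arrays. The groups did not overlap, yet vehicle arrays 1 and 2 were within 0.01 of NAC arrays 3 and 4, and the log2 fold change of 0.09 (SE 0.06) was 0.03 without vehicle array 4. Birc5, or survivin, was at 6.69, 6.80, 6.69 and 6.69 on the NAC arrays, against 6.69, 6.655 and 6.64 on the vehicle arrays, so that only NAC 2 stood above vehicle. Cdca8, or borealin, had a log2 fold change of 0.13.

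All 5 centromere and kinetochore genes measured were above 0, with a median of 0.05. Nuf2 and Ndc80 are subunits of the complex by which kinetochores hold microtubules. Nuf2 was at 5.65, 5.43, 5.52 and 5.43 on the NAC arrays, against 5.43, 5.43 and 5.33 on the vehicle arrays, and 4 of the 7 arrays held the same value. Ndc80 was at 5.50, 5.56, 5.73 and 5.50 on the NAC arrays, against 5.51, 5.46 and 5.49 on the vehicle arrays. The log2 fold changes were 0.11 (SE 0.06) and 0.09 (SE 0.06), and that of Ndc80 was 0.03 without NAC 3. The centromeric histone Cenpa, the kinetochore motor Cenpe and the large kinetochore protein Cenpf were at 0.05, 0.03 and 0.02.

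The spindle checkpoint holds back the anaphase-promoting complex until every chromosome is attached, and the 4 genes of both had a median of 0.14, which was 0.06 without NAC 3. Bub1, a checkpoint kinase, was at 5.86, 5.72, 6.17 and 5.66 on the NAC arrays, against 5.82, 5.48 and 5.82 on the vehicle arrays. Cdc20, the activator of the anaphase-promoting complex, was at 7.21, 7.53, 7.42 and 7.03 on the NAC arrays, against 7.23, 7.21 and 6.95 on the vehicle arrays. NAC and vehicle overlapped for both genes, with log2 fold changes of 0.15 (SE 0.14) and 0.17 (SE 0.13), and that of Bub1 was 0.04 without NAC 3. Ube2c, the ubiquitin-conjugating enzyme of the complex, and the checkpoint kinase Ttk were at 0.13 and 0.06.

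Of the 12 spindle motors and microtubule proteins measured, 11 were above 0, with a median of 0.05, but without NAC 3 only 6 were, with a median of 0.003. Dlgap5, which stabilises the kinetochore fibres of the spindle, was at 6.17, 6.26, 6.38 and 6.17 on the NAC arrays, against 5.98, 6.06 and 6.17 on the vehicle arrays. No NAC array was below a vehicle array, but 3 arrays, vehicle 4 among them, held the same value. The log2 fold change was 0.17 (SE 0.07, limma adjusted p = 0.827). Ckap2, Tpx2, Hmmr and Tacc3, all spindle-associated proteins, were at 0.14, 0.12, 0.09 and 0.07. The kinesin Kif11, which pushes the spindle poles apart, was at 0.05 and had the widest 95% interval of this group, from -0.37 to 0.46. Psrc1 was the member below 0, at -0.05.

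All 5 cytokinesis genes were above 0, with a median of 0.04. Anln, an actin-binding scaffold of the cleavage furrow, was at 6.84, 6.78, 7.15 and 6.63 on the NAC arrays, against 6.75, 6.67 and 6.51 on the vehicle arrays. Only NAC 4 lay within the vehicle range, and the log2 fold change was 0.21 (SE 0.13), with NAC 3 furthest from vehicle; without NAC 3 it was 0.10. Ect2, which activates RhoA at the furrow, was at 0.10, and the kinesins Kif20b and Kif23 and the linker Gas2l3 were at 0.04, 0.03 and 0.02.

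Chromosome structure and chromatin genes were divided, with 4 of 8 above 0 and a median of -0.01. Mki67 encodes Ki-67, the coat protein of mitotic chromosomes that is widely used as a marker of cycling cells. It was at 8.44, 8.46, 8.40 and 7.85 on the NAC arrays, against 8.18, 8.11 and 7.93 on the vehicle arrays. NAC arrays 1 to 3 were above all vehicle arrays and NAC 4 was below all of them, with a log2 fold change of 0.22 (SE 0.16), the highest of the mitosis genes. Top2a, the topoisomerase that untangles sister chromatids, was at 7.84, 7.70, 7.77 and 7.33 on the NAC arrays, against 7.47, 7.68 and 7.75 on the vehicle arrays. Its log2 fold change of 0.02 (SE 0.13) was far smaller than its standard error. Smc4, an ATPase of condensin, was at 7.89, 8.02, 7.96 and 7.56 on the NAC arrays, against 8.11, 7.93 and 8.03 on the vehicle arrays, a log2 fold change of -0.16 (SE 0.11). Hmgb2, a DNA-bending protein, was at 5.79, 5.40, 5.76 and 5.88 on the NAC arrays, against 6.15, 6.33 and 5.67 on the vehicle arrays. Vehicle arrays 1 and 2 were above every NAC array and vehicle 4 was within the NAC range, with a log2 fold change of -0.34 (SE 0.18). The number of the Hmgb2 probe set does not lie among those of its chromosome, as given above. The condensin subunit Ncapd2 and the phosphatase regulator Cdca2 were at 0.07 and 0.06, and the histone chaperone Anp32e and the heterochromatin protein Cbx5 at -0.05 and -0.10.

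Both nuclear envelope genes and G2e3 were below 0. Lbr, the lamin B receptor, which tethers chromatin to the inner nuclear membrane, was at 8.25, 8.24, 8.27 and 8.30 on the NAC arrays, against 8.30, 8.43 and 8.37 on the vehicle arrays. NAC 4 and vehicle 1 held the same value and every other NAC array was below every vehicle array, with a log2 fold change of -0.10 (SE 0.04, limma adjusted p = 0.827). Tmpo, a lamina-associated protein, was at -0.07. G2e3, a ubiquitin ligase named for its G2 and M expression, was at 8.25, 8.42, 8.39 and 8.11 on the NAC arrays, against 8.37, 8.39 and 8.58 on the vehicle arrays, a log2 fold change of -0.16 (SE 0.09).

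**Figure D2:**
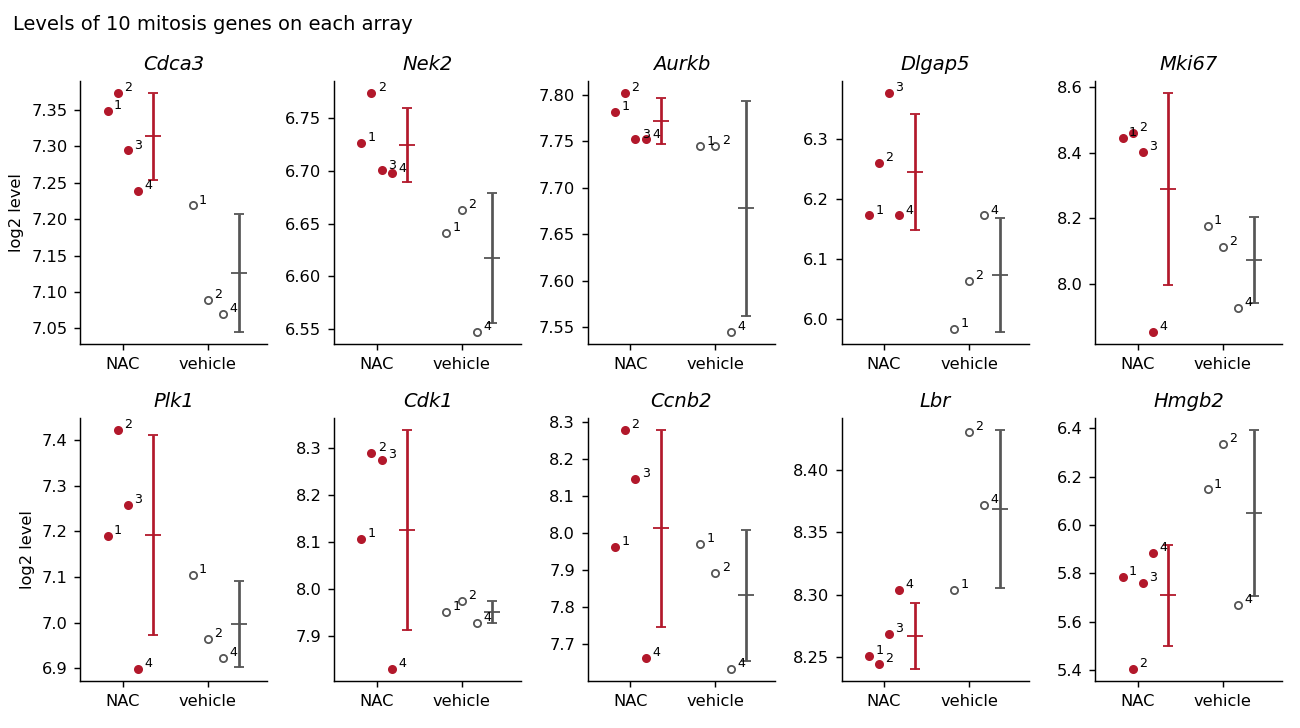
Log2 level (vertical axis, a separate scale for each gene) of 10 mitosis genes on each NAC array (filled, left) and vehicle array (open, right), with the replicate number beside each point and the mean and SD of each group as a bar. Cdca3, Nek2 and Aurkb do not overlap between groups; in Mki67, Plk1 and Cdk1, NAC 1 to 3 are above all vehicle arrays and NAC 4 is below them.

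The 9 genes below 0 differed from the 41 above 0 in level. Their median level was 8.004, and 5 of the 9 were over 8, against a median level of 6.86 and 4 of 41 over 8 for the genes above 0. Levels of probe sets of different genes also depend on their probes, and this order is a description only.

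The NAC arrays differed among themselves in these genes. Counting the array that held the highest value of each gene, NAC 2 was highest in 22 of 50 genes and NAC 3 in 17, against 13.1% and 14.8% of all genes. NAC 4 was lowest in 25 of 50 and highest in 0, against 17.3% and 19.3% of all genes. Vehicle 4 was lowest in 15, against 13.5% of all genes. Relative to the vehicle range of each gene, NAC 1 was above it in 21 genes, NAC 2 in 31, NAC 3 in 33 and NAC 4 in 4, and NAC 4 was below it in 25. The same shares over all genes were not computed, so these counts only compare the NAC arrays with each other. The mean deviation of the 50 genes from their 7-array mean was 0.04 on NAC 1, 0.10 on NAC 2, 0.11 on NAC 3 and -0.16 on NAC 4, against -0.002 on vehicle 1, -0.01 on vehicle 2 and -0.08 on vehicle 4. NAC 3 is the array with lung, adipocyte, skeletal muscle and endothelial transcripts, and NAC 4 the one with the highest Svs2 and Pate4, the lowest SD of values over all genes (2.04, against 2.06 to 2.10 on the other arrays) and the lowest limma array weight (0.652). The part of these in the deviations was not tested.

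**Figure D3:**
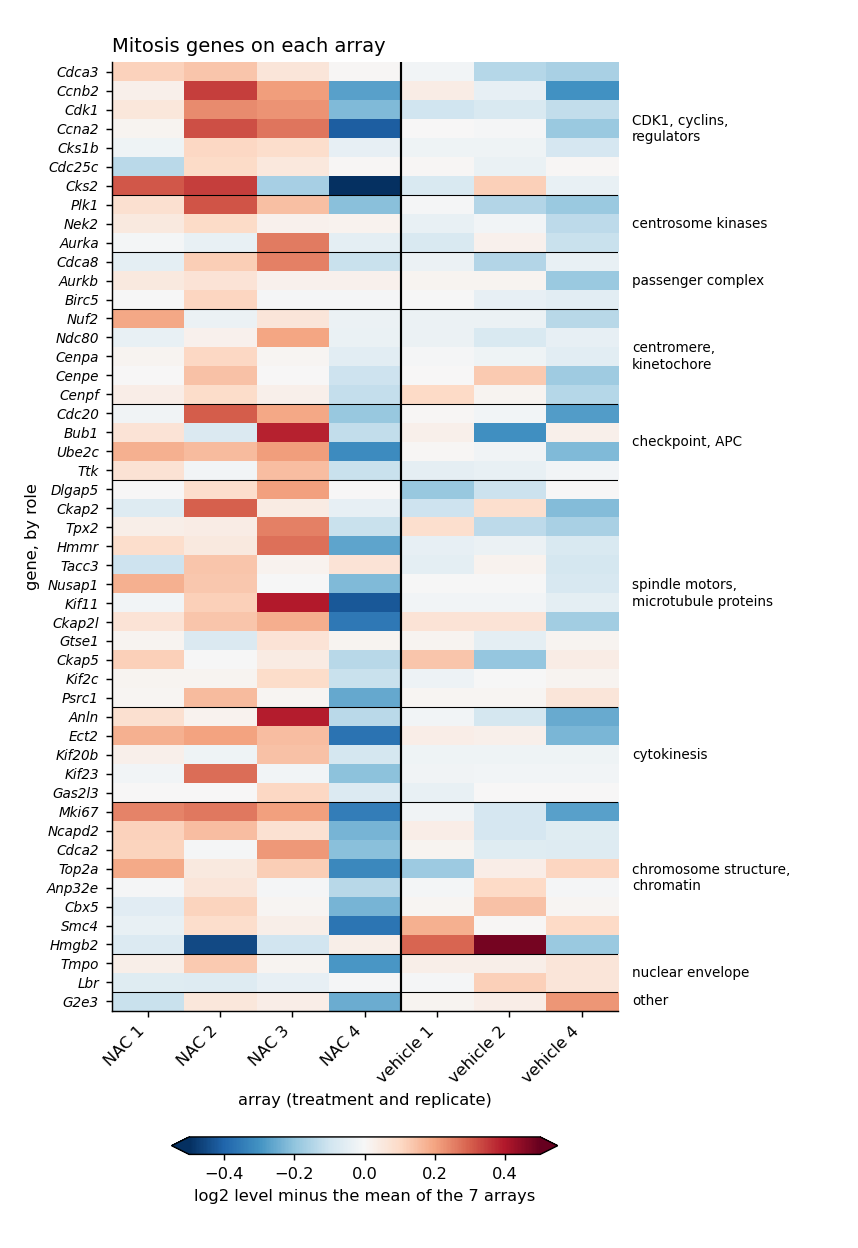
Log2 level of each of the 50 mitosis genes (rows, grouped by role) on each array (columns, NAC left of the line and vehicle right), minus the mean of the 7 arrays, in red above it and in blue below it; colours saturate at 0.5. NAC 2 and NAC 3 are mostly red, NAC 4 is mostly blue, and vehicle 4 is more often blue than vehicle 1 and 2.

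Leaving out arrays moved the size of the difference and, in some genes, its direction. Without NAC 3, 33 of 50 genes were above 0, against 49.8% of all genes, with a median of 0.04, and 2 were higher at an unadjusted p under 0.05 (Cdca3 and Nek2), against 1.51%. Without NAC 4, 44 were above 0, against 48.0% of all genes, with a median of 0.12, and 11 were higher at that threshold, against 1.37%. Without both, 42 were above 0, against 48.1%, with a median of 0.09, and 10 were higher, against 1.33%. In the 3 NAC arrays other than NAC 4, Mki67 had a log2 fold change of 0.36, Plk1 of 0.29 and Cdk1 of 0.27, with standard errors of 0.07, 0.08 and 0.06 and unadjusted p-values under 0.05. Each had a limma adjusted p of 0.913 in that fit, so that no mitosis gene passed the adjusted threshold in any of these sets of arrays. NAC 4 has no ground in the labels for removal, and an array left out because it is low in these genes would raise them by choice. In all 4 sets of arrays, 32 genes were above 0 and 6 below 0, and 12 changed sign, Top2a, Kif11 and Cks2 among them. Cks2 was at -0.01 with all arrays and at 0.33 (SE 0.07) without NAC 3 and NAC 4, with the limit of its probe set given above.

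**Figure D4:**
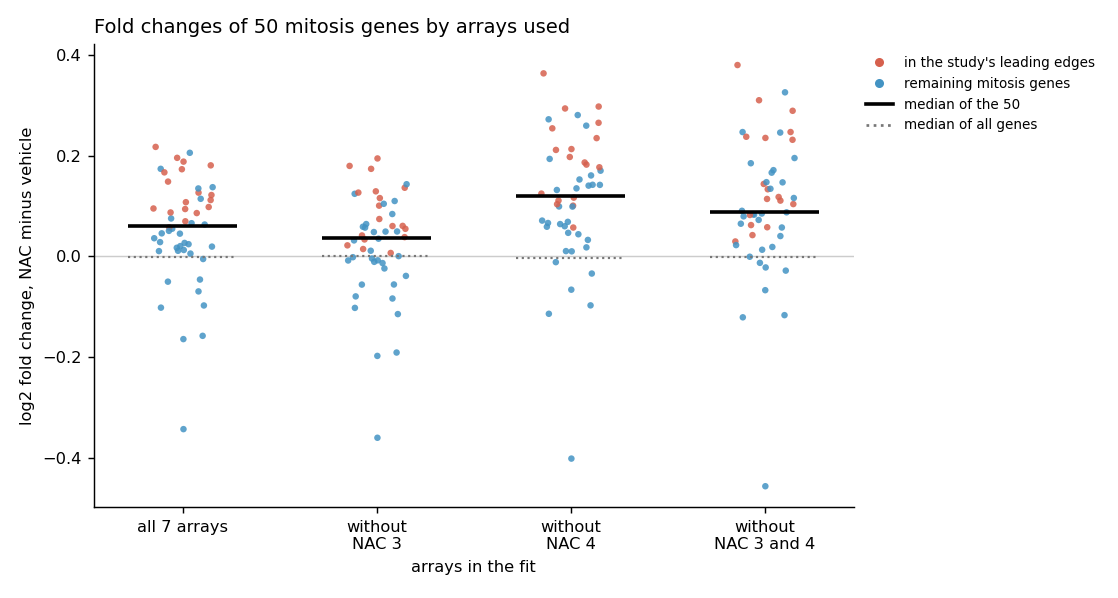
Log2 fold change (NAC minus vehicle, vertical axis) of each of the 50 mitosis genes with all 7 arrays, without NAC 3, without NAC 4 and without both; red points are the 18 genes in the study's leading edges, blue points the other 32, bars the median of the 50 and dotted lines the median of all 18938 genes. The median of the 50 is 0.06, 0.04, 0.12 and 0.09 in this order, while that of all genes stays near 0.

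The study drew leading-edge genes from proliferation gene sets on these same arrays, so that members among them are not independent evidence of a direction. The 18 mitosis genes in those leading edges were all above 0, with a median of 0.12. The other 32 were above 0 in 23 cases, with a median of 0.02. Since the 18 had been picked for being higher, leaving them out lowers the rest by construction. Without NAC 3, 15 of the 32 were above 0, with a median of -0.003, without NAC 4, 26 were, with a median of 0.07, and without both, 24 were, with a median of 0.08. Birc5, Cdk1 and Anln are among the 32, and Cdca3, Nek2, Dlgap5 and Aurkb are among the 18.

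Beyond the 50 genes, a further list of mitosis genes was taken, with 113 of 118 measured. Of these, 69 were above 0 and 44 below, against 49.5% of all genes above 0, with a median of 0.02. At an unadjusted p under 0.05, 7 were higher, against 1.89% of all genes, and 2 lower, against 2.53%. The groups did not overlap in 5 with NAC above, against 1.29% of all genes, and in 2 with NAC below, against 2.18%. The share that was lower and the share with NAC below were both near those of all genes. The smallest p belonged to Kif22, the chromokinesin of chromosome arms, which was at 6.57, 6.56, 6.63 and 6.44 on the NAC arrays, against 6.22, 6.35 and 6.43 on the vehicle arrays, without overlap. Its log2 fold change was 0.22 (SE 0.07, limma adjusted p = 0.827). Incenp, the scaffold of the chromosomal passenger complex, and Mis18a, which licenses centromeres for new histone, were each at 0.17, and the cytokinesis kinase Cit at 0.12. Genes of S phase, the stage of DNA synthesis before mitosis, were above 0 in 25 of 40, with a median of 0.01, and 1, the replication factor Gins2 (0.13), was higher at an unadjusted p under 0.05, a share near the 1.89% of all genes. The transcription regulators of mitosis genes, among them the E2F, MuvB and NF-Y subunits, were above 0 in 10 of 23, with a median of -0.02. Nfyb, a subunit of the factor that binds the CCAAT box, was at 7.86, 7.96, 7.76 and 7.75 on the NAC arrays, against 7.98, 7.97 and 7.998 on the vehicle arrays. All NAC values were below all vehicle values, with a log2 fold change of -0.15 (SE 0.06, limma adjusted p = 0.827). NAC 2, at 7.962, was close to vehicle 2, at 7.9686, and the log2 fold change was -0.07 (SE 0.04) without NAC 3 and NAC 4. Nfyb was the 1 regulator of the 23 that was lower at an unadjusted p under 0.05, against 2.53% of all genes. It was also the 1 with NAC below vehicle without overlap, against 2.18%. E2f5 and Lin52, both parts of DREAM, were at -0.09 each, and the activator E2f1, which is in the leading edges of the study, at 0.17. None of these genes passed the adjusted threshold. Leading-edge genes of the study, such as E2f1 and the S phase gene Rad51ap1, were not split off from the lists of this paragraph. Their counts are therefore not shown to be independent of that selection.

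NAC 4 was the lowest array in all 4 lists, with a mean deviation of -0.16 in the 50 mitosis genes, -0.07 in the further mitosis genes, -0.07 in the S phase genes and -0.10 in the transcription regulators, against 0.004 over all genes. NAC 3 was the highest in the 50 genes and in the S phase genes, at 0.11 and 0.10.

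**Figure D5:**
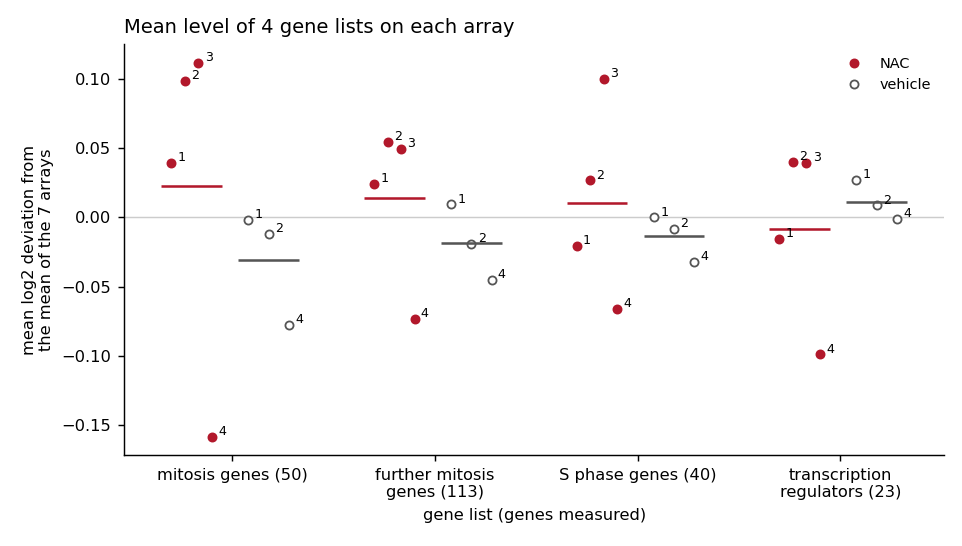
Mean deviation of 4 gene lists from their 7-array mean (vertical axis, log2 units) on each NAC array (filled, left of each pair) and vehicle array (open, right), with replicate numbers beside the points and the group mean as a line. NAC 4 is lowest in each list, and the NAC mean is above the vehicle mean in the first 3 lists and below it for the transcription regulators.

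Markers of other cell types were set beside these genes. B cell markers, 4 of 5 measured, averaged 5.19 to 5.68 on NAC arrays, highest on NAC 1, and 5.24 to 5.39 on vehicle arrays. Macrophage markers averaged 7.81 to 8.12 on NAC arrays, again highest on NAC 1, and 7.69 to 7.83 on vehicle arrays. Germ cell markers averaged 5.20 to 5.25 on NAC arrays and 5.17 to 5.20 on vehicle arrays. Basal epithelial markers averaged 8.0 to 8.57 on NAC arrays and 8.01 to 8.32 on vehicle arrays. NAC 1, the highest array in the B cell and macrophage lists, was the third of the NAC arrays in the mitosis genes. The part of these cells in the mitosis gene levels was not tested.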

How the data were processed

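RNA of each mouse was labelled and read on its own array, of the Mouse Gene 1.0 ST type of Affymetrix. Before depositing the log2 values, the authors had used Affy for an RMA background correction, a quantile step across arrays and a median polish of each probe set, and nothing further was done to them here. Processing notes of the submitters list affy, RMA and limma and no versions. RNA of a further vehicle mouse was taken, and its array is not analysed here. Titles assigned the arrays to NAC or vehicle, and 0 columns of values lacked a sample. The table has 20696 probe sets: 18950 with 1 gene in the annotation used, 678 with several and 1068 with none. Each of the 18938 genes was represented by its probe set of highest mean. Summarized values do not show signal over background, and precision is limited by the number of arrays.

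Differences between NAC and vehicle were fitted in R 4.3.3 by limma 3.58.1 (linear model with empirical Bayes, two-sided, without covariates). P-values were adjusted by Benjamini and Hochberg over all genes, at a threshold of 0.05. The fit was run on simulated data with planted changes larger than those of the mitosis genes with all arrays. That run does not show how well changes of their size are found. Lists are described by counts and medians, with no test of a list. The members and all lists were chosen with earlier results of these data known. Values on every array are given for members whose groups do not overlap, the 8 with the smallest p, the 3 highest and the 3 lowest in log2 fold change, and 12 well-known genes of their roles. From each outside list, at most 4 genes with the smallest p are named. Same-numbered NAC and vehicle arrays were checked for shared deviations over all genes (r 0.21, 0.29 and -0.07), so the numbers were not used to pair them. Alternatives changed the variance model (trend and robust fit), weighted the arrays, centred them on their medians, repeated the quantile step, dropped the dimmest 40% of genes, took the median of a gene's probe sets, blocked on the replicate number, or left out each array, or NAC 3 with NAC 4.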

Additional observations from a re-analysis of the deposited data

Results flagged for a closer look

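In each of the 50 mitosis genes, the highest and the lowest NAC array were set against the other NAC arrays, and in 5 genes 1 array lay far from the rest (the vehicle group, with 3 arrays, was too small for this). Chance alone would flag about 1 in 20 of the genes tested if their values were independent and normal. Many of these genes moved together across the arrays, so that rate may not hold here. Array NAC 4 was the lowest in 3 of them. Mki67, the chromosome coat protein, was at 7.85 on NAC 4 and between 8.40 and 8.46 on the other NAC arrays. Ube2c, the conjugating enzyme of the anaphase-promoting complex, was at 7.00 on NAC 4 and between 7.48 and 7.53 on the others. Ect2, an activator of RhoA in cytokinesis, was at 6.68 on NAC 4 and between 7.20 and 7.25 on the others. NAC 4 was also the array with the highest Svs2 and Pate4, though 4 of the 7 seminal vesicle markers were higher on a vehicle array, and the part of these in the values was not tested. Aurka, the centrosomal kinase, was at 7.27 on NAC 3 and between 6.97 and 7.00 on the others, and NAC 3 was the array with lung, adipocyte, skeletal muscle and endothelial markers, whose part was not tested either. Birc5, or survivin, was at 6.80 on NAC 2, while the other NAC arrays lay between 6.6896 and 6.6904, so close to each other that a difference of 0.11 set NAC 2 apart.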

How the results depend on the processing

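The mitosis genes above 0 numbered 41 of 50 with all arrays, 36 after quantile normalization again, 26 of the 34 left without dim genes, and 33 to 44 when each array was left out in turn, fewest without NAC 3 and most without NAC 4. Their median log2 fold change, 0.06 with all arrays, stayed above 0 under all 15 alternatives; with each array left out it was lowest, at 0.04, without NAC 2 and highest, at 0.12, without NAC 4. The number at an unadjusted p under 0.05 was 4 with all arrays, 2 after quantile normalization again and 10 without NAC 3 and NAC 4. With each array left out it was from 1 (without NAC 2) to 12 (11 higher and 1 lower, without NAC 4). Of all 18938 genes, 357 were higher and 479 lower at that threshold with all arrays. The counts were 286 and 351 without NAC 3, 259 and 338 without NAC 4, and 251 and 394 without both. For the remaining alternatives no share over all genes is given, so the counts there stand without a background. Over all genes, 0 were called with all arrays, and 0 to 1 with each array left out, the 1 gene, which is no mitosis gene, without NAC 4. With the replicate number as a block, which leaves NAC 3 without a partner, 0 genes were called, 33 of the 50 mitosis genes were above 0, the median was 0.04 and 3 had an unadjusted p under 0.05; the block changed no call. NAC 1 and NAC 2 resembled the vehicle array of their own number best (r 0.21 and 0.29). NAC 4 did not: it correlated at -0.07 with vehicle 4 and at 0.21 with vehicle 2. Of the 21 members with values on every array, Top2a changed sign: it was at 0.02 with all arrays, -0.013 with the block, and between -0.059 and 0.13 with each array left out, below 0 without NAC 1, NAC 3 or vehicle 1; the cause was not tested. The lowest adjusted p of these members under any alternative was 0.667. With 4 and 3 mice and log2 fold changes mostly under 0.2, a missed threshold does not show that a gene did not differ.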
